A study of Mus musculus with 12 samples.

Results

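Transcript assembly from mouse frontal cortex RNA left a large class of gene models without a gene symbol, and these unnamed models are described here. They were chosen as the rows that the authors' Cuffdiff tables tested and whose gene field held only a dash. They made up 3386 of the 18417 models tested for GluN1 against WT, 3372 of 18430 for GluN1Cre against GluN1 and 3410 of 18429 for GluN1Cre against WT. A further 4046, 4105 and 4077 unnamed models were listed but not tested. The label "unannotated" held only in part, since 63.6% of the tested unnamed models with a locus entry of their own in the table of GluN1 against WT overlapped a gene of the GENCODE M21 annotation, and they are therefore called unnamed models.

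The libraries came from 12 male mice of 14 weeks, all F1 hybrids of C57Bl/6 and 129/SvlmJ, with 4 mice in each group. The WT group is wild type, the GluN1 group is the Grin1 knockdown of the series title, and the GluN1Cre group is its Cre rescue. All 3 groups received tamoxifen, the ligand of inducible Cre recombinases, from 10 weeks of age for 2 weeks, given by gavage (6 mg) and then in chow (about 14 mg). By the group names Cre was carried by GluN1Cre mice only, so the recombinase itself and the return of Grin1 cannot be told apart as sources of a difference, and the labels do not say which promoter drives it. RNA with a poly(A) tail was selected from total RNA. Each table gives 1 level per group, in FPKM (fragments scaled by model length and library size), estimated by the authors over the 4 libraries of the group. The tables hold no value per mouse, so no spread between mice can be given and the depth is unknown.

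An assembler joins overlapping reads into transcript models and gives a model a symbol only when it meets a named gene of the annotation it was run with. Models left without a symbol can come from long non-coding RNAs, from processed pseudogenes (copies of messenger RNAs inserted elsewhere in the genome), from introns of long host transcripts, from RNA made in the opposite direction at a promoter, or from stretches of a known gene that was assembled in pieces. Snhg14 is a long imprinted host transcript expressed in neurons, which carries arrays of near-identical C/D box snoRNA genes in its introns and runs antisense to Ube3a. Immunoglobulin segments such as Igkc, the kappa constant region, are expressed by B lineage cells.

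Sequences are shown for the loci on which the results turn, from GENCODE M21 transcripts and the RefSeq promoter table, both on GRCm38. Models of Snhg14 that changed overlapped 5 snoRNA genes of 79 bases, all with a C box (TGATGA) and a D box (CTGA), in capitals. In pairwise comparison they differed at 0 to 2 of 79 bases, and Gm23356 and Gm24872 had the sequence of Gm24528. They are shown because reads from identical copies cannot be assigned to 1 of them.
Gm24862: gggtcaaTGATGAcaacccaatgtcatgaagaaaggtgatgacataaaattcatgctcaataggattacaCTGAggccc
Gm24528: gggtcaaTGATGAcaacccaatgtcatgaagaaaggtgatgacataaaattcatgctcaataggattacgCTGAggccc
Gm25449: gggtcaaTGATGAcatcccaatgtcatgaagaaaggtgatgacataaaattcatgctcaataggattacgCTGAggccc
Gm24862 lies at chr7:59391690-59391768, Gm24528 at chr7:59415590-59415668 and Gm25449 at chr7:59419323-59419401, all on the minus strand.

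The second set shows how close a pseudogene is to its parent gene. Ftl1-ps1 (chr13:74406409-74407346, plus strand) and Ftl1, the ferritin light chain (chr7:45457944-45459884, minus strand), shared 547 of 549 bases over the coding sequence of Ftl1. The stretch below has 90 bases and holds both differences, in capitals.
Ftl1-ps1: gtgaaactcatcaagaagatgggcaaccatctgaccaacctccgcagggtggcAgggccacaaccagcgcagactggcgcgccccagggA
Ftl1: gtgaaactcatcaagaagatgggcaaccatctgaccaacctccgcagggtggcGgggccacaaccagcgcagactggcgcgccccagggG
Rbm3-ps (chr1:150265535-150265999, minus strand) shared 459 of 462 bases with the coding sequence of Rbm3, a cold-induced RNA-binding protein.

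The third set shows a promoter beside which an unnamed model was assembled. The 250 bases before the start of Cacna2d1, a calcium channel subunit (chr5:15934441-15934690, plus strand), held 36 CG dinucleotides, in capitals.
Cacna2d1: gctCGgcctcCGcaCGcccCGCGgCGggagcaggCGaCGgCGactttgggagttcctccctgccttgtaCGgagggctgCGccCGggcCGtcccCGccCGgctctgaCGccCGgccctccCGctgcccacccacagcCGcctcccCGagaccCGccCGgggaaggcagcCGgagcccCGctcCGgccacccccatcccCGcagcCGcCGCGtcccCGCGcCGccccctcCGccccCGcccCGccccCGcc
The 250 bases before the start of Pik3c2a, a lipid kinase (chr7:116443459-116443708, minus strand), held 25.
Pik3c2a: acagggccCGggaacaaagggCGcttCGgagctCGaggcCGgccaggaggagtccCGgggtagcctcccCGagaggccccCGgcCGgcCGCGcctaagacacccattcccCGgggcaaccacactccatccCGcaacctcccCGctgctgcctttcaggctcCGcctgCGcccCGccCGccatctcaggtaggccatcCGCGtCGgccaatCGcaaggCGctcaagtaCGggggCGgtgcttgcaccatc
The last 90 bases of 6430553K19Rik and of 1700120G11Rik, long non-coding RNA genes at called models, each hold the letters AATAAA, in capitals, as did 32.1% of the 9096 lincRNA transcripts of the annotation. This hexamer is the usual poly(A) signal when it lies shortly before the end. Here 79 bases follow it in 6430553K19Rik and 32 in 1700120G11Rik, so a match is given as letters only.
6430553K19Rik: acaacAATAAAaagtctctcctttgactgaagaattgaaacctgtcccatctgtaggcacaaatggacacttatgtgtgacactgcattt
1700120G11Rik: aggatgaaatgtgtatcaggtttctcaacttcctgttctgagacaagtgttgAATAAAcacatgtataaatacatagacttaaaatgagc
6430553K19Rik spans chr16:48122072-48158499 and 1700120G11Rik chr4:14219496-14237450, both on the minus strand. The called model of 1700120G11Rik (chr4:14231188-14232083) lies in an intron, so the printed end of that gene is not part of the model.

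Over the whole series, Grin1, the targeted gene, was at 138 FPKM in WT, 56.7 in GluN1 and 78.0 in GluN1Cre, and all 3 comparisons of it passed the authors' test. Of the 36 to 37 unnamed tested models within 10 Mb of Grin1, Cuffdiff called 0 in each of the 3 tables, with 1, 0 and 1 at a p under 0.05 in the authors' deposited tables. Over all tested models the called shares were 2.52%, 0.689% and 0.841%, so 0 among so few models is near the share of all models. The summed level of 5 markers of cortical excitatory neurons was 744 FPKM in WT and 702 in GluN1. The GluN1 libraries held 148 FPKM summed over 8 olfactory bulb markers against 55.3 in WT, and 110 against 139 FPKM over 8 striatal markers. GluN1Cre stood at 88.5 FPKM for the bulb list, with 7 rows called higher than in WT, and at 99.8 FPKM for the striatal list, with 7 rows called lower. Blood markers summed to 97.1 FPKM in WT and 112 in GluN1, and to 160 in GluN1Cre, where 3 rows were called higher in each comparison. Markers of meninges and fibroblasts summed to 47.3 FPKM in WT and 61.3 in GluN1, with 3 of 6 rows called higher. RNAs that lack a poly(A) tail (Rn45s, Rpph1, Rmrp) summed to 735 FPKM in WT and 1331 in GluN1, and to 1192 in GluN1 and 599.5 in GluN1Cre. In bulk tissue, fewer cells of a type and less RNA per cell cannot be told apart, and the part of any of these markers in the results below was not tested.

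Most unnamed models were weakly expressed. In the table of GluN1 against WT the median of the mean FPKM of both groups was 0.537 for unnamed and 7.68 for named tested models, and 33.9% of unnamed models against 85.0% of named ones reached a mean of 1 FPKM. A tail of strongly expressed models remained, with 95 unnamed models at 100 FPKM or more.

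**Figure D1:**
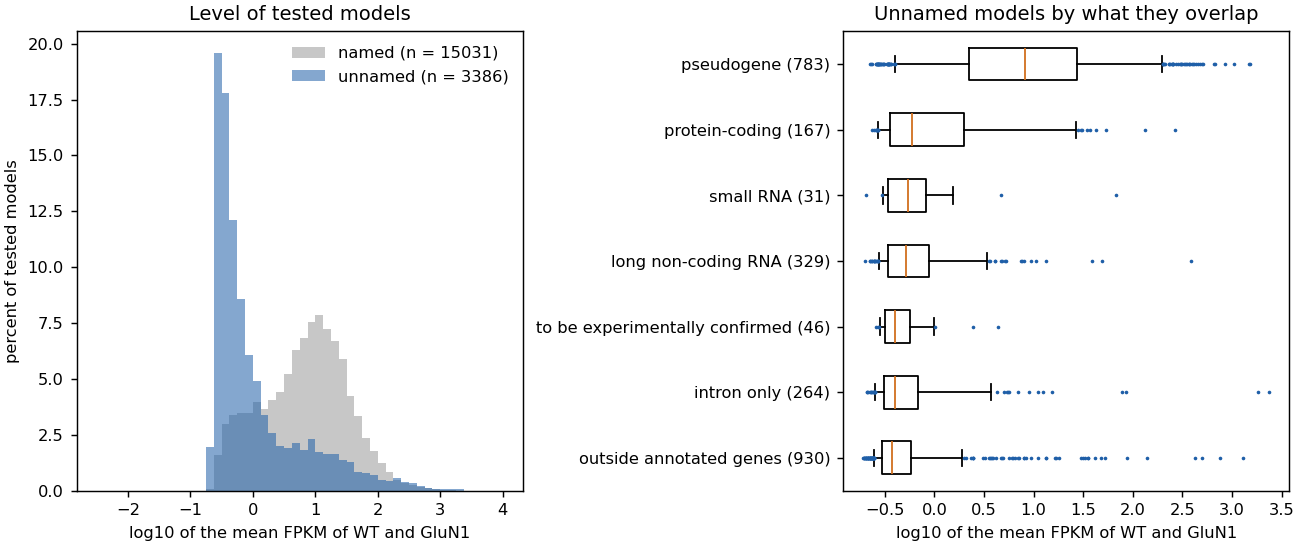
Left, distribution of log10 mean FPKM of WT and GluN1 for the 15031 named and 3386 unnamed tested models, as percent of each; right, the same level for unnamed models with a locus entry of their own, by the kind of gene they overlap (number of models in brackets; box, quartiles and median; whiskers, 5th to 95th percentile). Unnamed models crowd at the low end with a median of 0.537 FPKM, and those on pseudogene exons stand highest with a median of 8.22 FPKM.

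A locus entry can cover several assembled rows at once, so position was read only for the 2555 tested unnamed models with a locus entry of their own. Exons of annotated pseudogenes were met by 783 of them (30.6%), and these had a median of 8.22 FPKM and made up 77 of the 87 such models at 100 FPKM or more. Exons of long non-coding RNA genes were met by 329 (12.9%, median 0.516 FPKM) and exons of protein-coding genes by 167 (6.54%, median 0.594 FPKM). Another 264 lay in introns only, with a median of 0.405 FPKM. The largest group, 930 models (36.4%), lay outside every GENCODE gene and had a median of 0.371 FPKM. With RefSeq genes counted too, 591 (23.1%) overlapped no annotated gene. The composition in the other 2 tables was close to this, with 30.0% and 30.5% on pseudogene exons and 36.0% and 36.9% outside genes.

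Pseudogene models varied widely in level against their named parent. Of the 85 unnamed models in the table of GluN1 against WT that overlapped a pseudogene named after a parent with a row of its own, 52 had a higher FPKM than the parent, and 33 a lower one. The median was 128% of the parent's level, the quartiles were 50.7% and 776%, and the lowest was 0.330%. Over 85 such pseudogenes the transcript matched a transcript of the parent at a median of 99.0% of aligned bases, with a range of 72.2% to 100%. The fold of GluN1 over WT had the sign of the parent's fold in 56.5% of the 85 pairs. How the reads of such copies were divided was not tested.

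Very short models carried the highest levels. The 61 models under 200 bases had a median of 99.2 FPKM, against 2.04 for the 882 models from 200 bases to under 1 kb and 0.448 for the 1354 models from 1 kb to under 10 kb. Of the models under 200 bases 49.2% reached 100 FPKM, against 5.10% and 0.886% in these longer classes. Because each table was assembled separately, the same stretch could appear with different ends. An overlap of a model with only 1 model of the other table, and the reverse, was found for 1815 models with a locus entry of their own in the tables that share WT. Among the 1520 of these in which each span was at least 80% of the other, the WT level differed by a median of 0.02 on the log2 scale, and 11 (0.724%) differed more than 2-fold. Among the 139 pairs in which the span in the second table was at most 80% of the first, the median absolute difference was 0.45 and 21.6% differed more than 2-fold, and among the 156 pairs in which the span in the first table was under 80% of the second it was 0.50 and 23.7%.

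The extreme case lay in Snhg14. A stretch at Gm23145 was assembled as 404 bases (chr7:59424788-59425192) with 0.629 FPKM in WT in the table of GluN1 against WT. In the table of GluN1Cre against WT it was assembled as 131 bases (chr7:59425061-59425192), and there WT stood at 2003 FPKM. At the pseudogene Gm6394 the model was at 3.80 FPKM in WT over 410 bases (chr3:57717875-57718285) and 851 FPKM over 146 bases (chr3:57717875-57718021). These are 1 group of libraries in both tables, so levels of short models were compared only within a table.

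**Figure D2:**
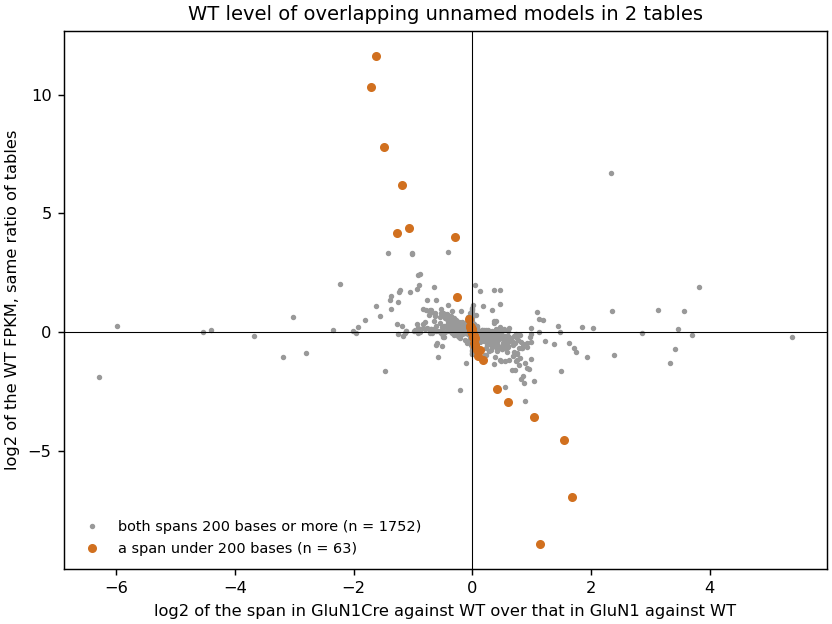
For 1815 overlapping pairs of unnamed models from the 2 tables that contain WT, the log2 ratio of the WT FPKM is plotted against the log2 ratio of the spans (GluN1Cre against WT over GluN1 against WT); orange marks the 63 pairs with a span under 200 bases. Points near equal span lie near 0, and short models that lost length gain up to 11.64 on the log2 level axis.

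Matching by at least 80% of both spans gave 1273 unnamed models found 1 to 1 in all 3 tables. For these the same group differed between its tables by a median of 0.02 to 0.03 on the log2 scale, with a 95th percentile of 0.37 to 0.42. For 12580 named models matched by symbol the 95th percentile was 0.24 to 0.25. The libraries behind each such pair of values are the same.

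The comparison of GluN1 with WT addressed which transcripts differ when Grin1 is low. A model was called where the authors' p was under 0.05 and their q under 0.10, the threshold of the series. Of all tested models 2.52% were called; of the unnamed models 40 of 3386 (1.18%) were called, 20 higher and 20 lower in GluN1. Among all tested models 1.66% were called higher and 0.858% lower. The unnamed share thus lay below the share of all models, with 2.82% of named models called, and the difference between the shares was not tested. Folds were centred near 0 with a median log2 fold of 0.00, and the 5th and 95th percentiles were -0.65 and 0.71 for unnamed and -0.23 and 0.33 for named models. Of the 40 called models, 15 had a mean of at least 1 FPKM, 5 higher and 10 lower.

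**Figure D3:**
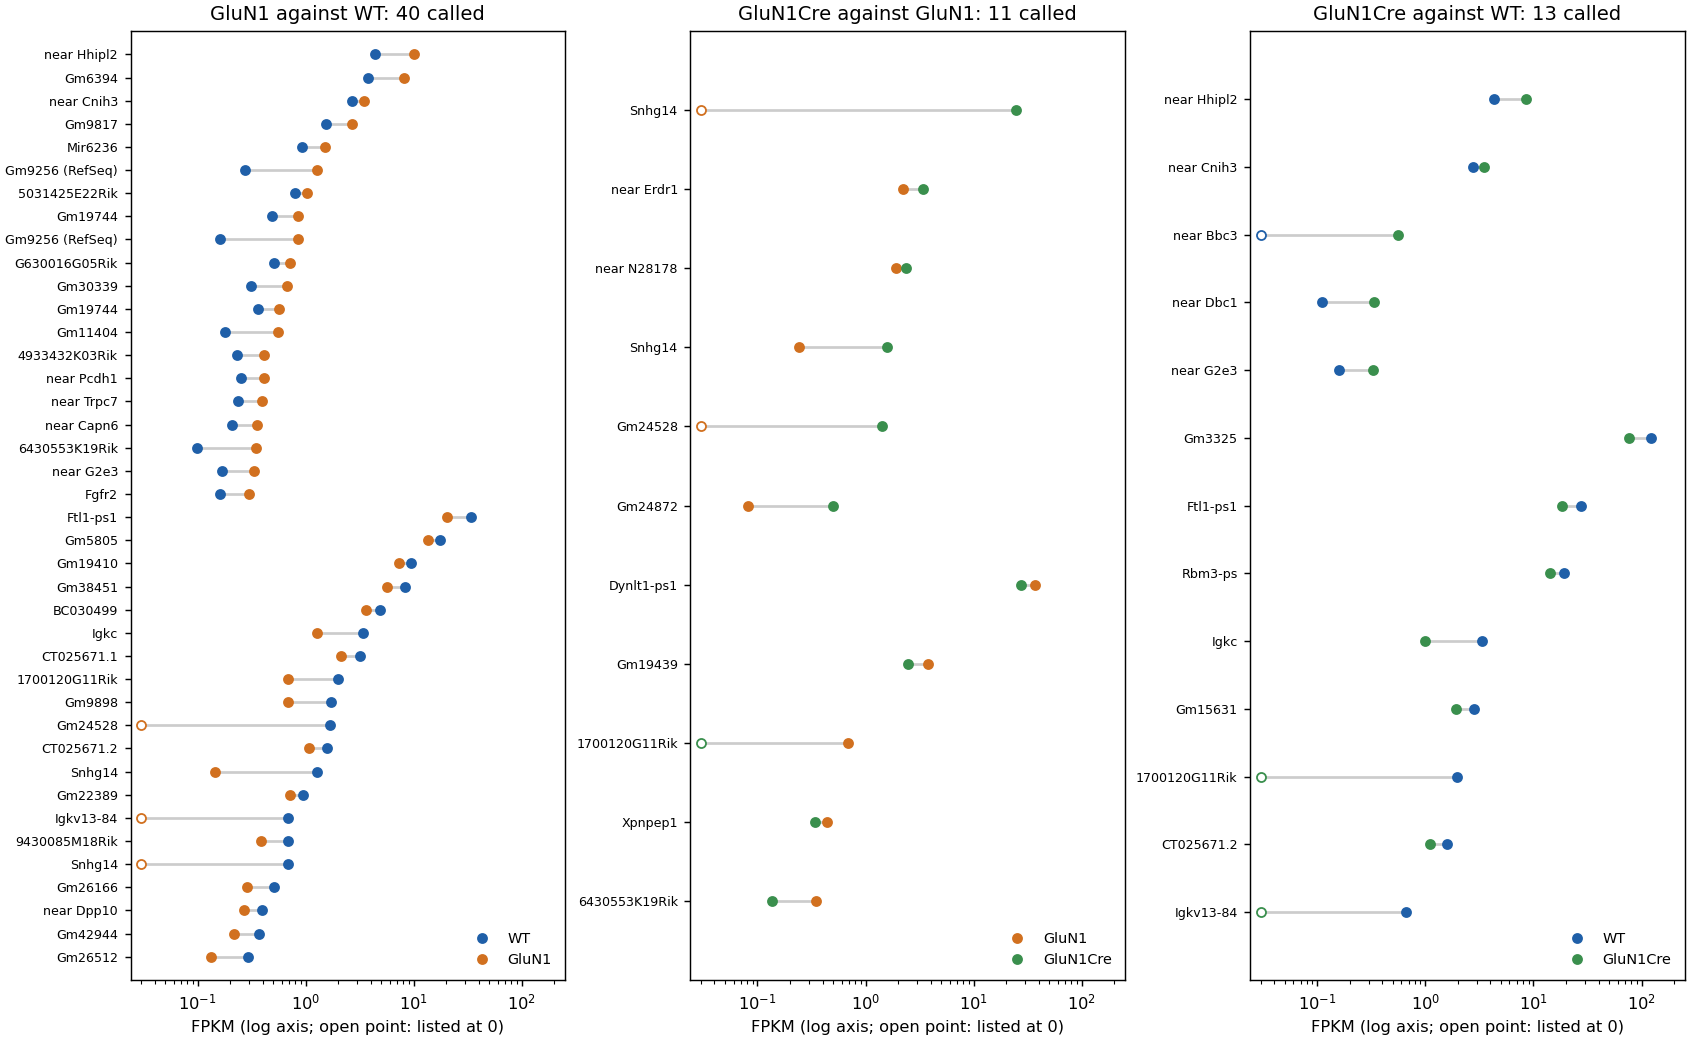
FPKM in both groups (log axis) for every called unnamed model of the 3 comparisons, 40, 11 and 13 in number; each line joins the groups of 1 model, open points are listed at 0, and labels give the overlapped gene or, outside genes, the nearest named model. Most lines are short and lie at low levels; a value listed at 0 is reached by some Snhg14 models, Igkv13-84, 1700120G11Rik and the model nearest Bbc3, and not by Igkc.

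Among the models that were higher, a model outside annotated genes (chr1:183723323-183723850), 286270 bases from Hhipl2, the nearest named model, stood at 4.33 FPKM in WT and 10.0 in GluN1, a rise of 1.21 on the log2 scale (q = 0.00456 in the authors' deposited table). The same model rose in GluN1Cre, from 4.27 to 8.62 FPKM (q = 0.0404 in the authors' deposited table), and GluN1 and GluN1Cre differed by -0.20 on the log2 scale without passing the test. A model on the pseudogene Gm6394 rose from 3.80 to 8.19 FPKM. In GluN1Cre against WT a shorter model of this pseudogene was also higher, at 851 FPKM in WT and 1496 in GluN1Cre. It did not pass the test there (q = 0.205 in the authors' deposited table). A model on Gm9817 (chr13:45077863-45079371), which RefSeq lists as Hsp25-ps1, a pseudogene of a small heat shock protein, went from 1.55 to 2.65 FPKM. A long model over the microRNA gene Mir6236 (chr9:110265378-110282826) went from 0.919 to 1.5 FPKM, and its neighbour Cspg5, a neural proteoglycan, was at 120 and 115 FPKM and did not pass the test. A model 76 bases downstream of Cnih3, an AMPA receptor auxiliary subunit (chr1:181462747-181471648), rose from 2.70 to 3.45 FPKM. Cnih3 itself had 2 rows and neither passed the test, the higher one at 38.5 FPKM in WT and 37.8 in GluN1.

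Weaker models named after their values were seen lay beside or inside other loci. A pair of neighbouring models in the immunoglobulin heavy chain region, over the RefSeq gene Gm9256, rose from 0.160 to 0.841 FPKM (chr12:115894481-115895749) and from 0.274 to 1.28 FPKM (chr12:115896099-115896792). Another unnamed model at Gm9256, 2.47 FPKM in WT and 2.21 in GluN1, did not pass the test. At 6430553K19Rik (chr16:48120823-48124932), whose end is printed above, the level rose from 0.0977 to 0.348 FPKM.

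Among the models that were lower, 3 lay in Snhg14 and 2 in the immunoglobulin kappa region, both described below. Ftl1-ps1, which the annotation lists as protein-coding despite its symbol, was at 33.5 FPKM in WT and 20.2 in GluN1 and fell by 0.73 on the log2 scale (q = 0.00456 in the authors' deposited table). Its parent Ftl1, nearly identical over the stretch printed above, fell from 93.5 to 55.3 FPKM, by 0.76 on the log2 scale. In GluN1Cre both were again below WT, by 0.56 for Ftl1-ps1 and 0.57 for Ftl1. Reads of these copies can be divided between them, so the pseudogene's fall is uncertain as a result of its own.

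A model in an intron of 1700120G11Rik (chr4:14231188-14232083), over the RefSeq gene Gm2560, was the only matched model called in all 3 tables. It stood at 2.0 FPKM in WT and 0.681 in GluN1, and the other 2 tables listed GluN1Cre at 0. It was thus lowest in GluN1Cre, where Grin1 was partly restored. Its nearest named model, Slc26a7, an anion exchanger 270366 bases away, did not pass the test in any table. A model over Gm9898 (chr1:30529705-30755710) went from 1.72 to 0.692 FPKM. CT025671.2, a pseudogene (chr17:66224608-66231039), went from 1.59 to 1.07 FPKM and was at 1.58 and 1.11 in WT and GluN1Cre, called in both tables. The pseudogene Gm5805 (chr15:81972057-81972899) went from 17.6 to 13.6 FPKM. A model over BC030499 (chr11:78290863-78297215), 131 bases upstream of the mitotic spindle gene Spag5, went from 4.84 to 3.60 FPKM, and Spag5 fell too, from 5.28 to 4.11 FPKM. In GluN1Cre the BC030499 model was at 5.14 FPKM against 4.8 in WT. The other 3 models with a mean of at least 1 FPKM shared their locus entry with further rows. They were at 8.29 and 5.61 FPKM (chr7:60918254-61202576), 9.39 and 7.33 FPKM (chr8:35764034-35818044) and 3.15 and 2.14 FPKM (chr17:66231214-66267031) in WT and GluN1.

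The models nearest the threshold were a model at CT025671.1 with q = 0.0975 just inside and a model at Gm19744 with q = 0.105 just outside, both in the authors' deposited table. Of the 40 called models 16 had p = 5e-05, the smallest value in the authors' deposited table.

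Snhg14 (chr7:59307924-59975759, minus strand) lay in the 1-Mb window with the most unnamed tested models in each table and held 43 of them in the table of GluN1 against WT, 49 for GluN1Cre against GluN1 and 47 for GluN1Cre against WT. Of these, 25, 25 and 29 overlapped at least 1 of its 208 annotated snoRNA genes. In GluN1 against WT 3 (6.98%) were called, all lower in GluN1, beside 0.858% of all tested models called lower. The model over Gm24862 (chr7:59391130-59392305) stood at 1.28 FPKM in WT and 0.145 in GluN1. The model over Gm24528 (chr7:59415597-59416301) stood at 1.68 FPKM in WT and was listed at 0 in GluN1. A model in an intron of Snhg14 (chr7:59423819-59424211) stood at 0.679 FPKM in WT and was also listed at 0 in GluN1. Of the 41 tested models of at least 200 bases, 30 were lower and 11 higher in GluN1, and 11 reached a p under 0.05 in the authors' deposited table, all lower. Of all unnamed tested models 7.27% reached such a p in that table, in either direction.

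In GluN1Cre against GluN1, 4 Snhg14 models (8.16%) were called, all higher in GluN1Cre. Of all models tested in that comparison 0.689% were called, 0.13% higher and 0.559% lower. Of the 39 Snhg14 models of at least 200 bases 22 were higher and 17 lower, and 7 reached a p under 0.05 in the authors' deposited table, all higher. Of all unnamed tested models 4.60% reached such a p in that table, in either direction. The model over Gm24862 (chr7:59391607-59392367) went from 0.244 to 1.58 FPKM. The model over Gm24872, Gm23356 and Gm25449 (chr7:59416629-59421719) went from 0.0824 to 0.503 FPKM. In GluN1 against WT this stretch was assembled as 3 shorter models, and none of them was called. WT stood at 1.46, 1.79 and 0.948 FPKM in them, and GluN1 at 0.00844, 1.33 and 0.877. The low GluN1 level over the whole stretch thus depends on how it was assembled. The model over Gm24528 was listed at 0 in GluN1 and stood at 1.41 FPKM in GluN1Cre, and a model of 180 bases (chr7:59390760-59390940) was listed at 0 and stood at 24.5 FPKM. In GluN1Cre against WT 0 of 47 were called by Cuffdiff, with 4 at a p under 0.05 in the authors' deposited table. Of all tested models 0.841% were called in this comparison, so 0 of 47 is near that share. Of all unnamed tested models 4.60% reached a p under 0.05 in it. Of the 39 models of at least 200 bases there, 27 were lower and 12 higher in GluN1Cre, with a median of 0.783 FPKM in WT and 0.718 in GluN1Cre. In this table the model over Gm24862 stood at 1.20 FPKM in WT and 1.28 in GluN1Cre, and that over Gm24528 at 1.27 and 1.40. The model of 180 bases stood at 9.15 FPKM in WT and 24.3 in GluN1Cre there, without passing the test. Levels of models this short are among the least certain. Both tables that hold GluN1 share its libraries, so the fall and the rise are not independent of each other.

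**Figure D4:**
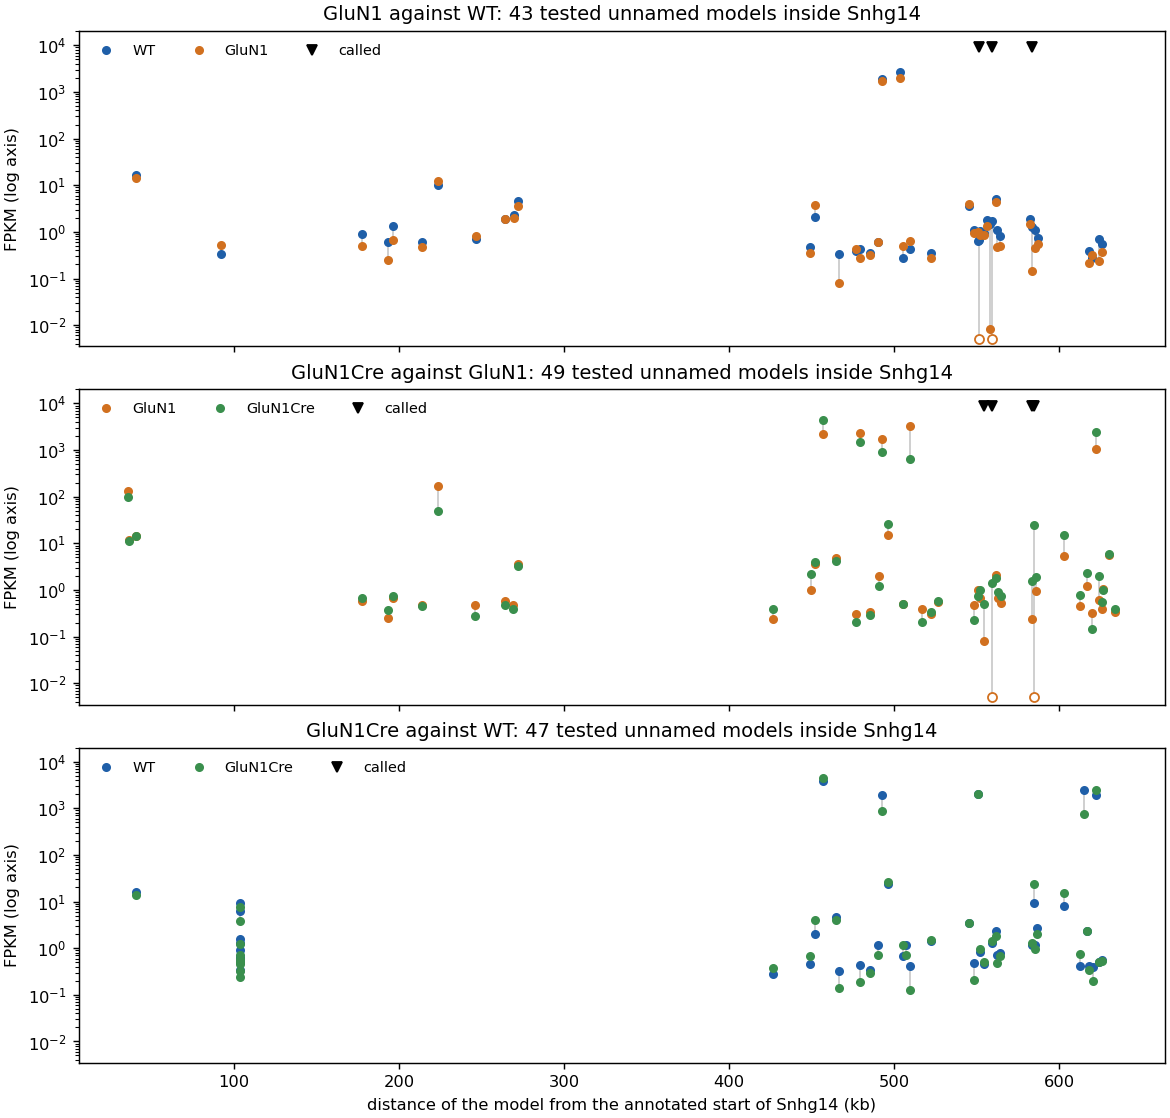
FPKM (log axis) of every tested unnamed model inside Snhg14 against its distance from the annotated start of the gene in kb, for the 3 comparisons; lines join the groups of a model, open points at the base are listed at 0, and triangles mark called models. The called models lie toward the far end of the gene, in the stretch of models near 1 FPKM, and none is called in GluN1Cre against WT, where several rows share 1 locus entry and stack at 1 distance.

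The called models of Snhg14 lay among others that did not pass the test, and short models of the same gene had far higher levels. A model of 131 bases (chr7:59483211-59483342) stood at 1940 FPKM in WT and 1703 in GluN1, and at 890 in GluN1Cre, and was called in no table. The named models along Snhg14 showed no called change: Ube3a was at 16.5 FPKM in WT and 16.9 in GluN1, and Ipw, a non-coding transcript, at 4.38 and 3.92. Because strand was not read here, RNA of Snhg14 and of Ube3a cannot be told apart where they overlap. All 4 rows for RNAs that lack a poly(A) tail were higher in GluN1 than in WT and lower in GluN1Cre than in GluN1, with 3 called in each comparison, and their part here was not tested.

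In the immunoglobulin kappa region 2 of 5 tested models were called in GluN1 against WT and 2 of 4 in GluN1Cre against WT, all lower than WT. Of all tested models 0.858% and 0.478% were called lower in these comparisons. The model over Igkc and its joining segments (chr6:70722550-70726965) stood at 3.40 FPKM in WT and 1.26 in GluN1, and fell by 1.43 on the log2 scale (q = 0.00456 in the authors' deposited table). Against GluN1Cre, WT stood at 3.37 and GluN1Cre at 0.998 FPKM, a fall of 1.76 (q = 0.0098 in the authors' deposited table). GluN1 and GluN1Cre, at 1.21 and 1.0 FPKM, did not pass the test. The variable segment Igkv13-84 (chr6:68939575-68940061) stood at 0.681 FPKM in WT and was listed at 0 in GluN1, and at 0.656 in WT and 0 in GluN1Cre. The variable segment Igkv6-20 was higher in GluN1, at 0.207 FPKM in WT and 0.327 in GluN1, and did not pass the test. In the same region 2 models on the pseudogene Gm6157 did not pass the test, at 3.56 and 6.71 FPKM in WT and 3.61 and 8.13 in GluN1. In the heavy chain region 5 tested rows of GluN1 against WT shared 1 locus entry that spans constant segments and pseudogenes, so none of them can be placed on a segment. None of the 5 passed the test there, and the highest was at 10.6 FPKM in WT and 9.71 in GluN1. In GluN1Cre against WT the entries were narrower and 0 heavy chain rows were called. The highest row at the entry over Ighm was at 10.1 FPKM in WT and 7.99 in GluN1Cre (q = 0.228 in the authors' deposited table). The row over Ighg2b and Ighg2c went the other way, from 1.01 to 1.14 FPKM. Of 9 B lineage genes looked up after these values were seen, 7 had rows and only Igj was tested; their levels summed to 0.889 FPKM in WT and 0.609 in GluN1, none was at 0, 4 were lower and 3 higher in GluN1, and Igj, the antibody joining chain, was at 0.548 and 0.304 FPKM without passing the test. With 4 mice a group and no value per mouse, the number of mice that carried the difference is not known.

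GluN1Cre against GluN1 addressed which transcripts move when Grin1 is partly restored. Of the 3372 unnamed models 11 (0.326%) were called, 6 higher and 5 lower in GluN1Cre, beside 0.689% of all models. Outside Snhg14, 2 models were higher. A model on the Y chromosome outside annotated genes (chrY:90737463-90740968) went from 2.2 to 3.39 FPKM, and a model near N28178 (chr4:42885063-42907402) from 1.92 to 2.38 FPKM. Of the lower models, 6430553K19Rik went from 0.349 to 0.135 FPKM, back toward the 0.0977 FPKM of WT in the other table. Gm19439 (chr3:88030798-88033489) went from 3.75 to 2.45 FPKM, while GluN1 and WT stood at 4.45 and 4.32 FPKM in their own table. The pseudogene Dynlt1-ps1 (chr6:135349119-135349811) went from 37.0 to 27.5 FPKM, and longer models of it in the tables with WT did not pass the test. A row of Dynlt1f, a dynein light chain gene of the same family, fell too, from 112 to 92.3 FPKM. A long model over Xpnpep1, an aminopeptidase gene (chr19:52946979-52983391), went from 0.443 to 0.340 FPKM. The model in 1700120G11Rik went from 0.683 FPKM to a value listed at 0. Just inside the threshold was the model near N28178 (q = 0.0943) and just outside a model at Gm9256 that went from 0.799 to 0.429 FPKM (q = 0.286), both in the authors' deposited table.

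GluN1Cre against WT addressed how the Cre group differed from WT. Of all tested models 0.841% were called, 0.364% higher and 0.478% lower; of the 3410 unnamed models 13 (0.381%) were called, 5 higher and 8 lower. The higher models were that far from Hhipl2, that downstream of Cnih3 at 2.74 FPKM in WT and 3.51 in GluN1Cre, and 3 weak ones. The weak ones stood at 0.112 and 0.337 FPKM (chr4:69257368-69264521), at 0.159 and 0.331 FPKM (chr12:51242888-51262132) and at 0 and 0.563 FPKM (chr7:16305070-16305555). In the table of GluN1Cre against GluN1 the last model was at 0.340 FPKM in GluN1 and 0.567 in GluN1Cre. The lower models held Igkc, Igkv13-84, Ftl1-ps1, CT025671.2 and the model in 1700120G11Rik. The remaining ones were Rbm3-ps, Gm15631 and a row that shared its locus entry (chr13:62006767-62126126) and went from 121 to 76.2 FPKM. Rbm3-ps (chr1:150264922-150266076) was at 19 FPKM in WT and 14.3 in GluN1Cre, a fall of 0.40 on the log2 scale, and it was at 19 and 15.6 FPKM in WT and GluN1 without passing the test. Its parent Rbm3 was at 3.70 and 3.10 FPKM without passing the test. A model over Gm15631 (chr6:105671490-105677602), 142 bases upstream of the adhesion gene Cntn4, went from 2.81 to 1.91 FPKM, and Cntn4, at 11 and 10.4 FPKM, did not pass the test. In GluN1 against WT a longer model over Gm15631 was at 2.13 and 2.09 FPKM and did not pass the test either. Rbm3-ps had the highest p of the called models (q = 0.0453), and the model just outside was Gm19439 at 3.49 and 2.33 FPKM (q = 0.106), both in the authors' deposited table.

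Across the 1273 matched models 16 were called in at least 1 table, of which 6 were called in 2 and 1 in all 3. Of all tested models, matched or not, 2.52%, 0.689% and 0.841% were called in the 3 tables, each taken alone. No count over several tables is given for named models, so whether these numbers are high or low is not shown. The 7 called in 2 or more tables were the models in 1700120G11Rik, over Igkc, over Ftl1-ps1, over CT025671.2, over Gm24528, downstream of Cnih3 and far from Hhipl2. Of these 7, 5 were called in both comparisons with WT and not between GluN1Cre and GluN1. The comparisons share their control libraries, so these values are given side by side and are not independent.

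Unnamed models lay at varied distances from named ones. Of the 3369 on a chromosome with a named model in the table of GluN1 against WT, 905 (26.9%) lay 5 to 50 kb away. A further 818 (24.3%) lay beyond 50 kb. At the near end 521 overlapped the locus entry of the named model and 378 (11.2%) lay within 200 bases of it without overlap. Of the 329 of these with a known strand of the neighbour, 250 (76.0%) lay on its upstream side and 79 on its downstream side. The upstream share was 75.3% from 200 bases to 1 kb and 51.2% from 1 to 5 kb, and 75.7% and 74.0% within 200 bases in the other 2 tables. The models within 200 bases had a median of 0.459 FPKM, a median of 5.49% of the neighbour's level in the same group of libraries; fragments are scaled by model length in both.

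**Figure D5:**
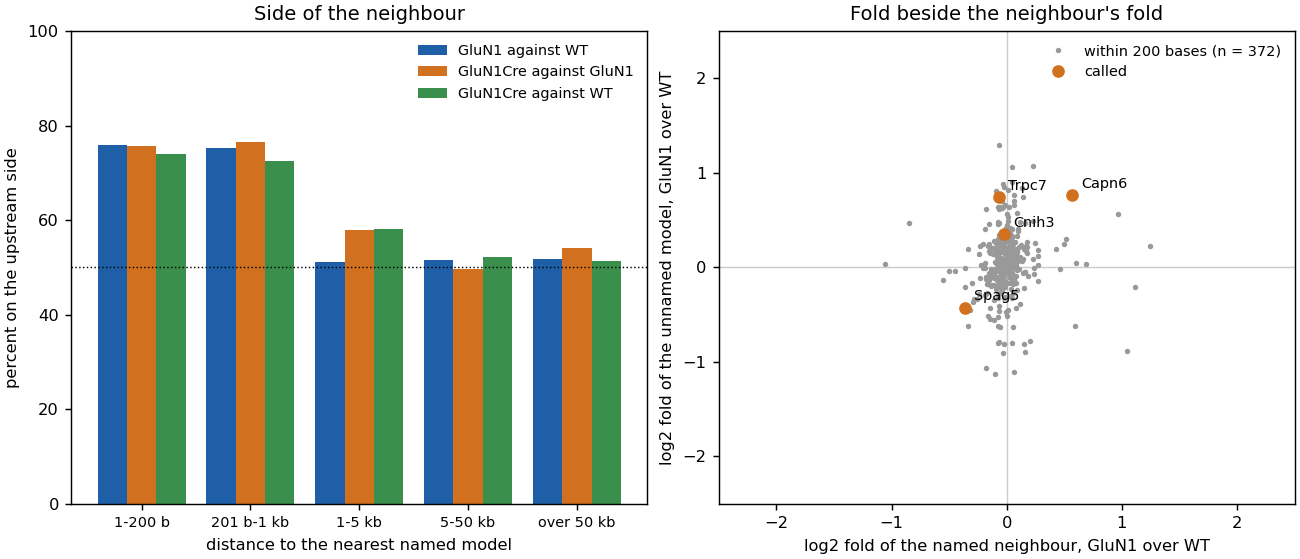
Left, percent of unnamed models on the upstream side of the nearest named model by distance, for the 3 tables (dotted line, 50%); right, log2 fold of GluN1 over WT of the 372 unnamed models within 200 bases of a named model against the fold of that neighbour, with the 4 called models in orange and 1 point beyond the axes. Upstream models prevail within 1 kb, and the folds of the models spread more widely than those of their neighbours.

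The promoters of genes with an upstream model were rich in CG. The search was for the letters CG on 300 bases from 250 before to 50 after the RefSeq start, a motif that reads the same on both strands. Of the 250 neighbours with an upstream model within 200 bases, 188 had a promoter in the table, with a median of 27 CG, and 85.6% had at least 15. Only 165 of these 188 promoters lay within 1 kb of the unnamed model, and the median covers all 188. In all 32851 promoters the median was 7 and 34.6% had at least 15, and among 9932 named tested models the median was 20 and 68.6% had at least 15. The 55 neighbours with a downstream model and a promoter had a median of 20. No test was made of these differences. Examples were a model over the long non-coding gene Gm3510 (chr5:15923792-15934626), 64 bases upstream of Cacna2d1, at 4.77 FPKM in WT and 5.46 in GluN1, and a model over AV356131 (chr7:116443529-116444377), 71 bases upstream of Pik3c2a, at 2.23 and 1.99 FPKM. Neither passed the test, nor did Cacna2d1, at 49.9 and 49.6 FPKM.

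Unnamed models followed their neighbours only weakly. The fold of GluN1 over WT had the sign of the nearest named model's fold in 55.5% of 3010 pairs, in 61.1% of the 511 that overlapped and in 52.3% of the 631 beyond 50 kb. In the other 2 comparisons the share over all distances was 53.5% and 51.4%. Across the 372 models within 200 bases Pearson's r with the neighbour's fold was 0.02 and Spearman's rho 0.19. For the 53 with a mean of at least 1 FPKM in both model and neighbour, r was 0.33 and rho 0.31. Among these 53 the sign was shared in 58.5%. With the same limits r was 0.21 in GluN1Cre against GluN1 and 0.24 in GluN1Cre against WT. These points share their libraries and often their reads, so they are a description. Of the 40 called models 22 lay beyond 50 kb of a named model, beside 24.3% of all 3369, and 4 had a called neighbour, beside 85 (2.52%) of all 3369. Conversely, 1 of the 2 rows of Zc3h7a, an RNA-binding zinc finger gene, rose from 17.4 to 28.1 FPKM in GluN1 and fell from 25.9 to 14.2 in GluN1Cre, while the unnamed model within 105 bases of it was at 0.320 and 0.327 FPKM and at 0.288 and 0.273 and did not pass the test. A model 122 bases upstream of Capn6, a calpain family gene, rose with it, from 0.207 to 0.352 FPKM, while Capn6 went from 0.752 to 1.11. A model just downstream of Trpc7, a cation channel gene, rose from 0.236 to 0.395 FPKM, and Trpc7 did not pass the test at 1.36 and 1.3.

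The 10 unnamed models with the highest level among those matched in all tables were not called by Cuffdiff in any table (0 of 30 tests, 0 at a p under 0.05 in the authors' deposited tables), and 6 lay on pseudogene exons. Of all tested models 2.52%, 0.689% and 0.841% were called in the 3 tables, so 0 of 30 calls is near that share. Gm14303 (chr2:172509409-172509740) stood at 1063 FPKM in WT and 1037 in GluN1, and Gm11223 (chr4:69925191-69926175) at 508 and 482. Rpsa-ps12 (chr4:149143254-149143457), a copy of a ribosomal protein gene, stood at 514 and 506. A model of 167 bases outside genes (chr3:129505454-129505621) stood at 132 FPKM in WT in the table with GluN1 and 2108 in that with GluN1Cre, although the libraries are the same.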

How the data were processed

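Polyadenylated RNA of frontal cortex was measured in 12 mice of 3 groups. Per the submitters' processing notes, FastQC 0.65, TopHat, TopHat2 2.1.0, Cufflinks 2.2.1.0 and Cuffdiff 2.2.1.3 were used and the build is mm10 (GRCm38). The 3 group comparisons were deposited as separate Cuffdiff tables. For each assembled model the deposited columns are FPKM in either group, the log2 fold between them, and the score of Cuffdiff's test. The authors also deposited the p-value and q-value of that test. Groups were read from the column names through the labels. No count or value per mouse was used, so p-values are those of the authors' Cuffdiff test and depth is unknown.

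Log2 folds were recomputed from the deposited FPKM values where both were above 0, and no fold is given against a value listed at 0. A model was called at p under 0.05 and q under 0.10. Locus positions are printed as deposited. Members were matched by at least 80% of both spans, 1 to 1, placed on GENCODE M21 and RefSeq GRCm38 by overlap, and set beside the nearest named row. Sequences were aligned with Biopython 1.88. Matching, neighbours and adjustment were tested on simulated data. Other tools were Python 3.11.15, pandas 2.3.3 and numpy 2.4.6.

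Named were all called models, or above 12 in a direction those with a mean of at least 1 FPKM, the 10 highest matched models and those called in 2 tables; others were named after their values were seen. The members and lists were chosen with earlier results of these data known. Alternatives tried were other thresholds, filters, pseudocounts, matching, neighbour and overlap rules.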

Additional observations from a re-analysis of the deposited data

How the results depend on the processing

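No paired analysis was possible because the tables hold 1 value per group and none per mouse, and for the same reason no mouse could be left out. Of 43 alternatives over 11 results, 12 were counted as moving the result and 0 as reversing it. The other 31 were counted as leaving it in place, which allowed some change in number. Among those 31, called unnamed models fell from 40 to 28 in GluN1 against WT at q under 0.05. They fell from 11 to 8 in GluN1Cre against GluN1 without models listed at 0. Matched models rose from 1273 to 1645 at 50% overlap. Called unnamed models fell in number with a filter on a mean of at least 1 FPKM: to 15 in GluN1 against WT, 5 in GluN1Cre against GluN1 and 8 in GluN1Cre against WT. Their share of the unnamed models past the filter was 1.31%, 0.444% and 0.699%, against 1.18%, 0.326% and 0.381% without it. For named models past the filter it was 2.79%, 0.838% and 0.993%. With q recomputed over models past that filter, called unnamed models numbered 15 in GluN1 against WT, 5 in GluN1Cre against GluN1 and 9 in GluN1Cre against WT. Without Snhg14 models, an alternative chosen after seeing the data, 7 remained in GluN1Cre against GluN1, 2 of them higher.

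In GluN1 against WT the share of models with the sign of their neighbour's fold was 57.6% within 5 kb. It was 53.0% over all distances with both at 1 FPKM or more. In GluN1Cre against WT the share was 53.7% within 5 kb. At 95% overlap 837 models matched in all tables. The share on annotated genes was 52.8% when 50% of the span had to overlap and 53.3% when an exon had to. The planned search for poly(A) signals at model ends was not run, since genome sequence was not used here. Folds below 1 FPKM and levels of models under 200 bases are the least certain values.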
